A study of Arabidopsis thaliana with 3 samples.

Results

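The 4 SPX genes SPX1 (AT5G20150), SPX2 (AT2G26660), SPX3 (AT2G45130) and SPX4 (AT5G15330) of Arabidopsis thaliana were examined for binding by the transcription factor FHY3, among 27444 protein-coding nuclear genes. They were chosen by gene family, with the strong FHY3 peak at SPX3 already known, so every value at these genes is a description and none was tested. A peak was counted for a gene when its interval overlapped the gene's span extended by 3 kb on each side. By this rule 1 of 1475 nuclear peaks of replicate 1 and 4 of 1354 nuclear peaks of replicate 2 belonged to an SPX gene.

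The data came from chromatin immunoprecipitation with sequencing (ChIP-seq), which maps where a protein sits on DNA. All plants carried the transgene 35S:3FLAG-FHY3-3HA, a doubly tagged FHY3, in the fhy3-4 mutant, and were raised with 16 h of light and 8 h of dark. The 35S promoter is active in most tissues, so FHY3 could be present in cells that normally hold little of it. Inflorescences with flowers up to stage 8 gave 2 ChIP samples, precipitated through the FLAG tag and described as biological replicates, and 1 input sample whose values were not used here. Each ChIP sample has its own peak list with the authors' score per peak, which ran from 23.03 to 3100 on a scale that is not stated and is therefore used only to rank or describe peaks within a list. Median scores were 42.8 for replicate 1 and 55.4 for replicate 2. Sequencing depth is unknown, so no peak carries a counting error.

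SPX proteins are small sensors of phosphate. When phosphate is plentiful, inositol pyrophosphates bind their SPX domain, and the proteins then hold the MYB factor PHR1 and its relatives away from the phosphate starvation genes. When phosphate runs short PHR1 is released, and among the genes it turns on are SPX1, SPX2 and SPX3 themselves, which closes a feedback loop; SPX4 transcripts are not induced in this way. FHY3, a protein derived from a transposase, acts in far-red light signalling, and with its relative FAR1 it has been reported to activate PHR1. No strand or sequence was used here, so positions are given relative to a gene's span and not to its transcription start. Placing peaks beside genes assumes that the lists share the frame of the TAIR10.1 assembly, which the sources used here do not state.

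FHY3 peaks marked the SPX genes unequally. SPX3 had a high-scoring peak over the gene in both replicates, SPX4 had 3 low-scoring peaks in replicate 2 alone, and SPX1 and SPX2 had none in either list. Thus 1 of the 4 SPX genes had overlapping peaks of both lists, whereas 1463 of all 27444 protein-coding genes (5.33%) did. In replicate 1 alone, 1 of the 4 SPX genes had a peak, against 7.24% of protein-coding genes, and in replicate 2 alone 2 of the 4 did, against 7.60%. With 4 members that were chosen on these same peaks, nothing is read from the comparison with those percentages.

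**Figure D1:**
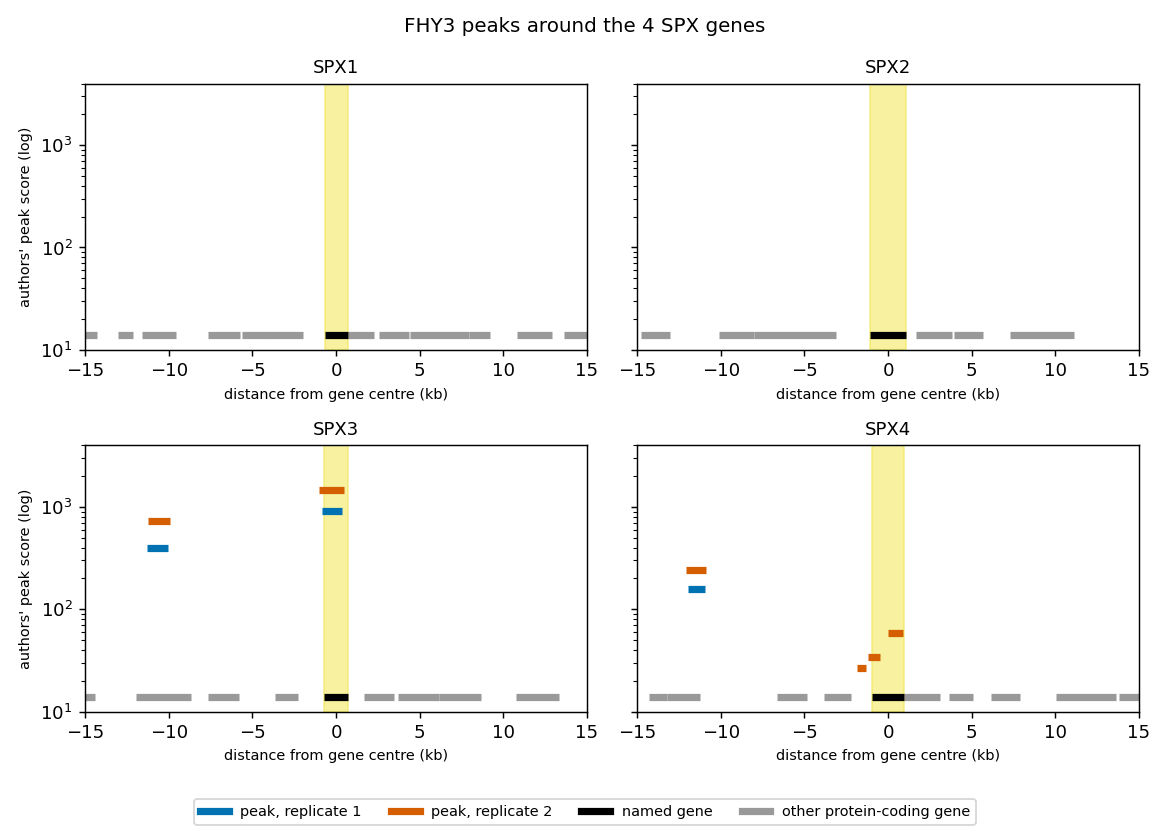
Positions of FHY3 peaks along 30 kb centred on each SPX gene; the horizontal axis is the distance from the gene's centre in kb, towards higher coordinates on the right, and the height of each coloured bar is the authors' score on a log scale (blue, replicate 1; orange, replicate 2). SPX3 has a peak of each list over the gene, SPX4 has 3 peaks of replicate 2 at lower scores, and the SPX1 and SPX2 panels hold no peak.

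SPX3 encodes an SPX protein whose transcript is strongly induced by phosphate starvation. Its replicate 1 peak lay on chromosome 2 from 18606275 to 18607470, was 1196 bp wide and scored 907. Its replicate 2 peak ran from 18606103 to 18607579, was 1477 bp wide and scored 1462. These scores placed the SPX3 peak at rank 25 of 1475 in replicate 1 and at rank 27 of 1354 in replicate 2, and at rank 5 on chromosome 2 in each list, which holds 221 and 197 peaks there. The peak next above it scored 962 in replicate 1 and 1491 in replicate 2, and the peak next below scored 902 and 1447.

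The interval covered most of the gene. In replicate 1 it spanned 73.5% of the SPX3 gene span and in replicate 2 81.0%, and 88.7% and 79.2% of the peak itself lay within the span. The replicate 1 interval lay wholly inside the replicate 2 interval, with 1196 bp in common out of 1477 bp in all (81.0%), and the midpoints were 31.5 bp apart. Over all 944 overlapping pairs of peaks the median common part was 80.1% and the median offset 73.5 bp. For the 33 pairs within 20 ranks of SPX3 by replicate 1 score, the common part had a median of 88.3% and ranged from 50.3 to 99.6%, a range that includes SPX3.

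The width of the SPX3 peak lay within the range of peaks of similar score and above the median of each list. The 35 peaks within 20 score ranks of SPX3 in replicate 1 had a median width of 1366 bp (range 1065 to 11354), and the 38 such peaks of replicate 2 had a median of 1472 bp (range 1056 to 4682). By width alone the SPX3 peak ranked at 405 of 1475 in replicate 1 and at 190 of 1354 in replicate 2. Median widths over all nuclear peaks were 906 and 953 bp. Of the peaks that outscored it, 13 of 24 in replicate 1 and 10 of 26 in replicate 2 lay in gene-poor stretches (bins of 500 kb with under 0.5 times the chromosome's median gene density). Of all nuclear peaks, 836 of 1475 in replicate 1 and 876 of 1354 in replicate 2 lay outside such stretches. Among those, SPX3 ranked at 12 in replicate 1 and at 17 in replicate 2.

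**Figure D2:**
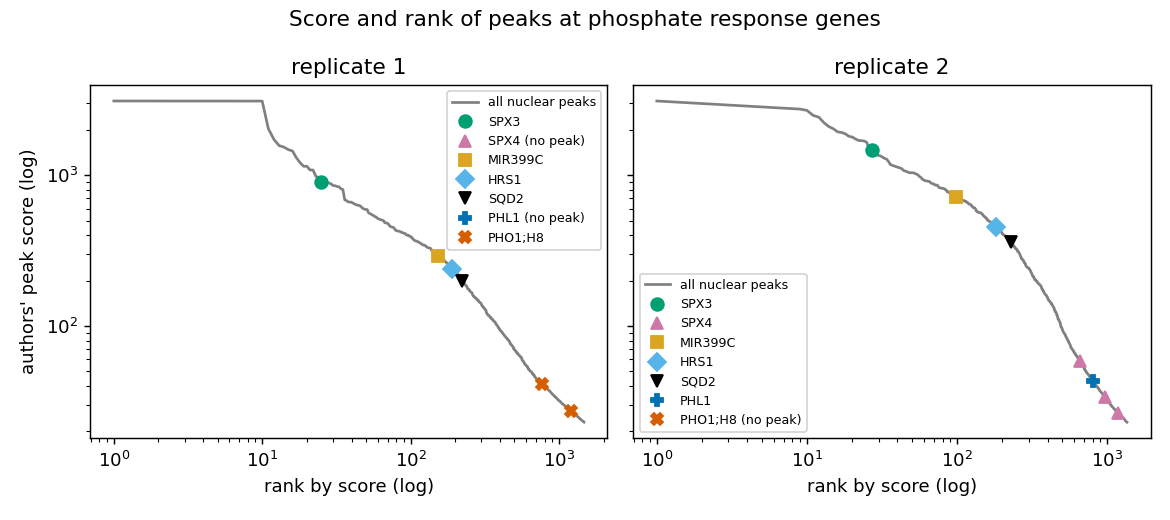
Authors' peak score against rank within each list, both on log axes, with a panel for each replicate; the grey line is all nuclear peaks and the symbols are peaks at SPX3, SPX4 and other genes of the phosphate response. SPX3 lies near the top of both curves at ranks 25 and 27, whereas the 3 SPX4 peaks lie at ranks 656, 966 and 1186 of replicate 2 and have no mark in replicate 1.

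The SPX3 peak is also within 3 kb of its neighbours on both sides, AT2G45120 and AT2G45135. These lie 1397 and 1354 bp from the replicate 1 peak and 1225 and 1245 bp from the replicate 2 peak, whereas the peak overlaps SPX3 itself. Among the 1463 genes with overlapping peaks of both lists, 32 had higher best scores than SPX3 in both replicates. The median best score of those 1463 genes was 119 in replicate 1 and 228 in replicate 2. The 5 genes whose pair of best scores was nearest to that of SPX3, by distance on log10 scores over the 2 lists, fell at 2 places. AT3G03130, AT3G03140 and AT3G03150 share a peak with scores of 836 and 1338, and the receptor-like kinase genes CRK2 and CRK3 share a peak with scores of 888 and 1650.

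SPX3 lies in a stretch of chromosome 2 with several further peaks. Within 100 kb of the gene there were 8 peaks in replicate 1 and 7 in replicate 2, counting its own, and every one of these overlapped a peak of the other list. The median protein-coding gene had 1 peak within 100 kb in each list, and 98.6% of genes in replicate 1 and 98.1% in replicate 2 had fewer than SPX3. Scores in the stretch ran from 66.7 to 907 in replicate 1 and from 117 to 1462 in replicate 2, with the highest at SPX3 in both. In replicate 2 a peak 39.9 kb from the gene, 4069 bp wide, came close with a score of 1350 and rank 30. It overlapped replicate 1 peaks with scores of 290 and 148. The nearest further peak lay 9.33 kb from the gene in replicate 1, from 18595848 to 18597077 with a score of 400.45, and 9.22 kb away in replicate 2, from 18595899 to 18597193 with a score of 724.

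SPX4 is the member whose rice counterpart holds the PHR1 homologue in the cytosol and is degraded when phosphate is short. It had 3 peaks in replicate 2 and none in replicate 1. On chromosome 5 these ran from 4979429 to 4979997 with a score of 26.6, from 4980127 to 4980828 with a score of 33.8, and from 4981272 to 4982205 with a score of 59.0. Their ranks were 1186, 966 and 656 of 1354, so the highest stood just above the list's median score and the lowest near its floor of 23.03. All of them scored far below the SPX3 peak of the same list.

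The SPX4 peaks formed a row along the gene. They were 569, 702 and 934 bp wide, separated by gaps of 129 and 443 bp, and together covered 2205 bp of a stretch of 2777 bp. The first lay 377 bp outside the gene span, 64.8% of the second and 100% of the third lay within it, and 74.8% of the span was covered. The third peak also lay 68 bp from AT5G15340, and all 3 lay within 3 kb of AT5G15320 and AT5G15340. MYB16 was 2959 bp from the first peak and ENODL17 2714 bp from the third. In all of the genome, 25 protein-coding genes had at least 3 replicate 2 peaks by the same rule. Of 27444 such genes, 7 (0.0255%) had at least 3 replicate 2 peaks and no replicate 1 peak. That pattern is the one seen at SPX4 itself, so nothing is read from the share. SPX4, AT5G15320 and AT5G15340 were 3 of the 7, counted on the same peaks. GGH2, AT1G78690 and BEH4, with consecutive locus numbers on chromosome 1 and 4 replicate 2 peaks each, were 3 more. ATK3 of chromosome 5 was the last, and all 7 lay outside gene-poor stretches.

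Peaks of similar score in replicate 2 were looked up in replicate 1. Among replicate 2 peaks within 1.2-fold of the SPX4 scores, 35.7% (95% Wilson interval 30.8 to 40.8%) of 345 peaks near 26.6 overlapped a replicate 1 peak. Near 33.8 it was 39.1% (33.5 to 44.9%) of 274 peaks, and near 59.0 it was 61.6% (53.6 to 69.1%) of 146 peaks. These intervals cover counting error of peaks only. Lack of a replicate 1 counterpart was thus the more frequent outcome for single peaks near the lower scores, and the less frequent near the highest. The sets include the SPX4 peaks, and those near 26.6 and 33.8 overlap. The SPX4 peaks lie side by side, so these shares do not describe how often such a row lacks a counterpart. Among the 450 replicate 2 peaks without a counterpart, the SPX4 peaks ranked at 342, 205 and 59 by score, and the median score of such peaks was 32.1.

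Replicate 1 did hold peaks near SPX4. Its nearest lay 9.98 kb from the gene, from 4969352 to 4970390, with a score of 156, and overlapped a replicate 2 peak from 4969249 to 4970408 with a score of 244. Within 100 kb of SPX4 there were 3 peaks in replicate 1, all of them found in replicate 2, and 7 in replicate 2, of which 3 were found in replicate 1. Fewer were counted for 76.0% of genes in replicate 1 and for 98.1% in replicate 2, the same replicate 2 share as at SPX3. The 4 peaks of replicate 2 without a counterpart were the row at the gene and a peak from 4931715 to 4932148 with a score of 25.2. The lists thus agreed on the stronger peaks around SPX4 and differed at the gene.

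**Figure D3:**
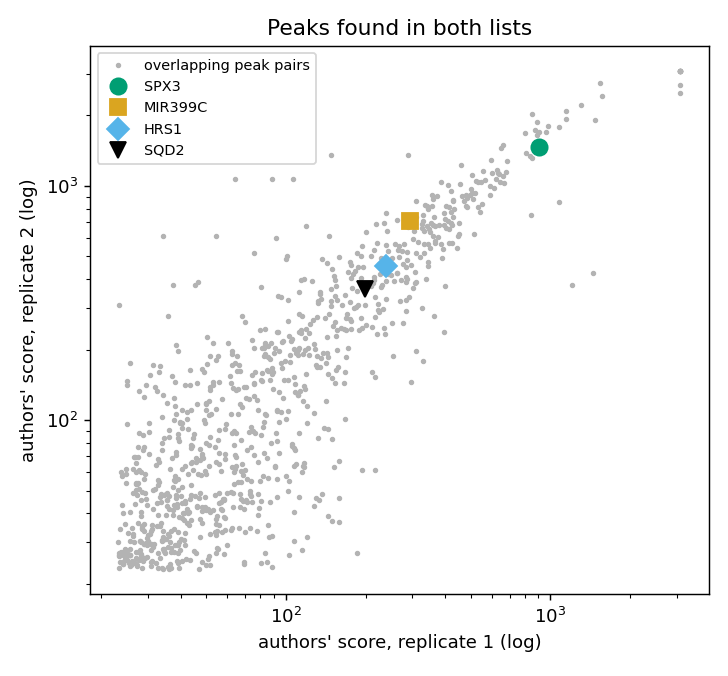
Authors' scores of the 944 overlapping pairs of peaks, replicate 1 on the horizontal and replicate 2 on the vertical axis, both on log scales; coloured symbols are the pairs at SPX3, MIR399C, HRS1 and SQD2. Among the 4 marked pairs SPX3 is the highest on each axis, and SPX4 has no pair.

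SPX1 and SPX2 encode nuclear proteins that bind PHR1 in a phosphate-dependent way and act redundantly. No peak of either list lay within 3 kb of them. The nearest peak to SPX1 on chromosome 5 was 25.6 kb away in replicate 1, from 6829261 to 6829743 with a score of 28.8, and 136 kb away in replicate 2, from 6665985 to 6666734 with a score of 28.81. The nearest to SPX2 on chromosome 2 was 84.7 kb away in replicate 1, from 11425693 to 11426318 with a score of 37.2, and 228 kb away in replicate 2, from 11568690 to 11569561 with a score of 169. Only the last of these 4 peaks overlapped a peak of the other list.

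Neither gene had a replicate 2 peak within 100 kb. In replicate 1 SPX1 had 2 peaks within 100 kb and SPX2 had 1, beside a median of 1 over all protein-coding genes in each list. Over all protein-coding genes the median distance to the nearest peak was 47.2 kb in replicate 1 and 43.5 kb in replicate 2, with quartiles of 17.6 and 101 kb and of 16.5 and 95.2 kb. SPX1 was farther from a peak than 33.2% of genes in replicate 1 and than 85.4% in replicate 2, and SPX2 than 69.0% and 94.6%. Lack of a peak within 3 kb, as at SPX1 and SPX2, was the usual state of a gene in these lists. Such a peak was present at 7.24% of protein-coding genes in replicate 1 and at 7.60% in replicate 2. In replicate 2 both genes nevertheless lay beyond the upper quartile of distance. All 4 SPX genes lay outside the gene-poor stretches. With unknown depth, a missing peak shows that no enrichment passed the authors' threshold and does not show that FHY3 was absent.

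**Figure D4:**
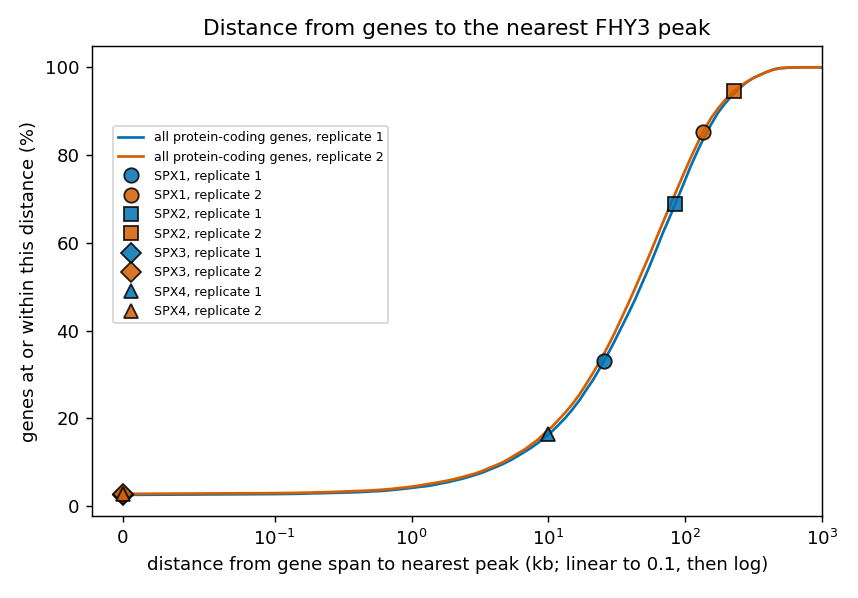
Share of protein-coding genes with a peak at or within a given distance of the gene span, with distance in kb on the horizontal axis (linear up to 0.1 kb, then log) and a curve for each replicate; symbols mark the 4 SPX genes. SPX3 stands at 0 kb in both lists, SPX4 at 0 kb in replicate 2 and 9.98 kb in replicate 1, and SPX1 and SPX2 between 25.6 and 228 kb.

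The same rule was applied to 77 further genes of phosphate sensing, uptake and scavenging in 7 lists, all of which were found in the gene table. Overlapping peaks of both lists were present at 3 of the 77 (3.90%), of which MIR399C is a miRNA gene. Among the 71 of them that are protein-coding it was 2 (2.82%), which stands beside the 5.33% of all protein-coding genes. The lists were chosen with earlier results of these data known, and some of their genes are neighbours, so nothing is read from this comparison. A further gene had a peak in replicate 1 alone, a further gene in replicate 2 alone, and 72 had none. The median distance to the nearest peak was 45.3 kb in replicate 1 and 53.6 kb in replicate 2, beside 47.2 and 43.5 kb over all protein-coding genes. Scores of the 3 genes were lower than those of SPX3 in each replicate.

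Other proteins with an SPX domain include the phosphate exporter PHO1 and its homologues, the ubiquitin ligase NLA, which removes phosphate transporters from the plasma membrane, and the vacuolar phosphate transporters of the PHT5 family. Of these 15 genes, 0 had overlapping peaks of both lists, beside 5.33% of all protein-coding genes. With so few genes, some of them neighbours such as PHO1;H5 and PHO1;H6, nothing is read from the count. PHO1;H8 (AT1G35350) had 2 low-scoring peaks in replicate 1 alone, on chromosome 1 from 12983168 to 12985781 with a score of 27.3 and from 12986198 to 12987241 with a score of 41.3. The first overlaps the gene and the second lies 1.46 kb outside it, over 2 small nuclear RNA genes and the long non-coding RNA gene AT1G06867. The other 14 genes had no peak within 3 kb. The median distance to a peak over the 15 was 93.6 kb in replicate 1 and 88.8 kb in replicate 2. Over all protein-coding genes it was 47.2 and 43.5 kb.

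Of 14 transcription factor genes of phosphate starvation, 1 (7.14%) had overlapping peaks of both lists, beside 5.33% of all protein-coding genes. This was HRS1 (AT1G13300), a GARP family factor that links phosphate and nitrate signals in the primary root. Its peak ran on chromosome 1 from 4555154 to 4556144 in replicate 1, with a score of 239, and from 4554806 to 4556256 in replicate 2, with a score of 453. The peak lay 734 and 622 bp outside the gene span, and no other annotated gene lay within 3 kb of it. PHL1 (AT5G29000), a relative of PHR1 with overlapping function, had a peak in replicate 2 alone, from 11024788 to 11025888 with a score of 43.3, at the edge of its span in a gene-poor stretch. PHR1 itself (AT4G28610), the partner of the SPX proteins, had its nearest peak 132 kb away in replicate 1 and 76.5 kb away in replicate 2.

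None of the 5 inositol polyphosphate kinase genes, whose products make the ligands of the SPX domain, had a peak in either list. The same held for the 16 genes of phosphate transport and its turnover, among them the plasma membrane transporters of the PHT1 family and the ubiquitin-conjugating enzyme gene PHO2. The nearest miss was PHT1;2, 3.59 kb from a replicate 1 peak. The 4 genes of the root response to low phosphate also had none. Over all protein-coding genes, 7.24% had a replicate 1 peak and 7.60% a replicate 2 peak. With lists this short, nothing is read from the lack of peaks.

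Among 8 genes of regulatory RNAs, MIR399C (AT5G62162) had overlapping peaks of both lists. miR399 moves from shoot to root under phosphate starvation and silences PHO2, and IPS1, a target mimic, sequesters it. The peak covered the whole annotated miRNA gene, on chromosome 5 from 24961998 to 24963088 with a score of 293 and rank 152 in replicate 1, and from 24961862 to 24963286 with a score of 711 and rank 98 in replicate 2. Of all 326 nuclear miRNA genes, 12 (3.68%) had overlapping peaks of both lists within 3 kb, and the other 5 MIR399 genes of the list had no peak. The peak is shared with neighbours: it lies 134 bp from ZIP12 in replicate 1 and overlaps it in replicate 2, and the MADS-box gene AGL42 lies 1558 and 1360 bp away. IPS1 lay 3.50 kb from a replicate 1 peak and 37.1 kb from any replicate 2 peak.

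Of 15 genes of phosphate scavenging and lipid remodelling, SQD2 (AT5G01220) alone (6.67%) had overlapping peaks of both lists, beside 5.33% of all protein-coding genes. It encodes a sulfolipid synthase, which lets plants replace phospholipids in plastid membranes when phosphate is scarce. The peak ran on chromosome 5 from 90364 to 91336 in replicate 1, with a score of 198, and from 90318 to 91632 in replicate 2, with a score of 362. It lay between genes, 247 and 201 bp from the SQD2 span. AT5G01225 was 450 and 154 bp away and AT5G01230 502 and 206 bp away, so the replicate 1 peak was nearest to SQD2 and the replicate 2 peak to AT5G01225. Ranked by score, the pairs at SPX3, MIR399C, HRS1 and SQD2 stood in this same order in both replicates.

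**Figure D5:**
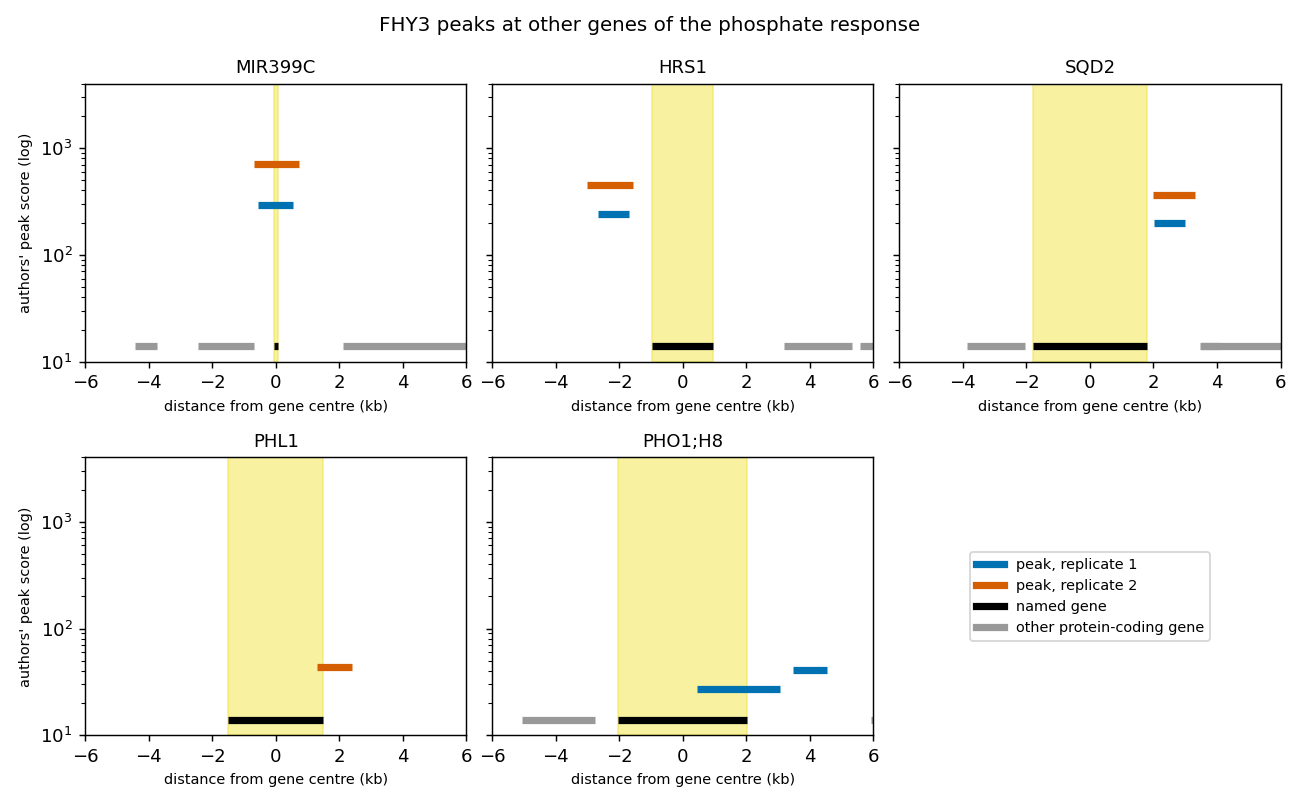
Peaks along 12 kb centred on the 5 genes of the further phosphate lists that had a peak within 3 kb; axes and colours are as in the map of the SPX genes, with distance from the gene's centre in kb and the authors' score on a log scale. MIR399C, HRS1 and SQD2 have a peak of each list, PHL1 has a peak of replicate 2 alone and PHO1;H8 has 2 peaks of replicate 1 alone.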

How the data were processed

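The authors deposited a peak list for each of 2 ChIP samples, without a header, giving each peak's interval and score. The submitters' processing notes name MACS 1.4.2, Bowtie2 2.2.3 and CASAVA 1.8. Not given in the sources used here are the settings, the peak caller's control, the genome build and the score scale. Peaks were listed per sample, not on pooled reads. The score depends on depth, so scores and ranks were compared within a list and set side by side between lists.

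Starts were converted to positions counted from 1, and peaks on the 5 nuclear chromosomes were kept. Gene spans and names came from a RefSeq table of TAIR10.1, without strand. A peak belonged to a gene when it overlapped its span extended by 3 kb, and peaks of both lists counted as shared when they overlapped by at least 1 bp. Replicates are the samples that the titles number. No test was made, since the members and the gene lists were chosen with earlier results of these data known. Named genes were the SPX genes, list genes with a peak, genes sharing an SPX peak, the 5 genes with best scores nearest to those of SPX3, and the nearest peaks outside the 3 kb. Other genes with rows of replicate 2 peaks, the genes beside list peaks, and PHR1, PHO2, PHT1;2 and IPS1 were named after their values were seen. Motif searches that had been planned were not run. Overlap counting was checked on made-up intervals. Alternatives were other flanks, peak midpoints, a score of at least 100, a reciprocal overlap of 50%, each replicate alone and other rankings. Python 3.11.15 with numpy 2.4.6, pandas 2.3.3, scipy 1.17.1 and matplotlib 3.10.9 was used.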

Additional observations from a re-analysis of the deposited data

How the results depend on the processing

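SPX3 was the SPX gene with overlapping peaks of both lists under every flank, overlap and score setting run, and with organelle peaks included its score ranks remained 25 and 27. Outside gene-poor stretches it ranked at 12 of 836 peaks in replicate 1 and at 17 of 876 in replicate 2, since fewer peaks are ranked there. By width it ranked at 405 in replicate 1 and at 190 in replicate 2. With a single list, 1 to 2 SPX genes, 0 to 1 other SPX-domain genes, 4 of the 77 list genes and 1988 to 2087 protein-coding genes had a peak. With a score of at least 100, SPX genes with a replicate 2 peak numbered 1, since the SPX4 peaks score below it, and protein-coding genes with shared peaks numbered 810. With no flank, 1 list gene (MIR399C) and 524 protein-coding genes had shared peaks, and with 1 kb 857 protein-coding genes did, since a narrower window takes in fewer peaks. A flank of 5 kb added PHL1 to the list genes. The other alternatives kept each count within 1.5 times its reported value. No paired analysis was possible because a lone ChIP group leaves nothing to pair. Depth is unknown, which limits the weight of a missing peak.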
